A study of Mus musculus with 42 samples.

Results

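Splenic B cells of mice homozygous for a variant of Psmb8 were compared between old and young animals, across all genes. The libraries were taken by their titles: 3 old homozygous and 4 young homozygous B cell libraries, 7 of the 42 in the series. All 7 carried Psmb8 G201V on both alleles and came from spleens of animals given no treatment. The comparators were the 7 wild-type B cell libraries (3 old, 4 young, Psmb8 +/+ with 1 young animal labelled Psmb9 +/+ instead) and the T cell and non-BT (remaining spleen cell) libraries of the same homozygous animals, 7 of each. Age beyond old and young, sex, strain and the method of cell separation are not stated. The variant sits in a mouse model of Nakajo-Nishimura syndrome, a proteasome-associated autoinflammatory disease, and FPKM per gene cannot show whether a library carries it.

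B cells make antibody from rearranged immunoglobulin genes, signal through the B cell receptor, and present antigen on MHC class II. Psmb8 encodes β5i, a catalytic subunit of the immunoproteasome, the proteasome form of immune cells that supplies peptides to MHC class I. With age, mouse spleens are known to gain age-associated B cells and expanded B cell clones, while fewer new B cells arrive from the marrow.

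The libraries held an estimated 16650000 to 28110000 fragments, and 10905 to 11342 genes reached 1 FPKM (fragments scaled by transcript length and by the mapped fragments of the library). At these depths 1 FPKM of a transcript of 2 kb stands for 33.3 to 56.2 fragments. All 16 B cell identity markers were above 1 FPKM in each of the 7 libraries, the lowest value being 12.9, so the label B cell held. Replicates correlated across genes at 0.947 to 0.965 among old and 0.973 to 0.978 among young libraries. Old library 2 stood apart: its Y-linked transcripts were at most 0.173 FPKM against at least 4.64 in the other 6, with Xist at 2.65 FPKM. In the same library 1 heavy chain V segment held 55.1% of the FPKM of all heavy chain V segments. The old wild-type animal of the same number also lacked Y-linked transcripts. Old library 1 stood apart in heat shock genes.

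Immunoglobulin genes varied widely among the old animals. One heavy chain V segment, Ighv5-9, supplied 55.1% of all Ighv FPKM in old library 2, against 1.099% and 0.923% in the other old libraries and 0.503 to 0.992% in the young. The light chain segment Igkv5-39 supplied 21.7% of its Igkv FPKM, against 1.30% and 5.45% in old libraries 1 and 3 and 1.14 to 5.40% in the young libraries. Old wild-type library 3 held 12.8%. The ends of the reference coding parts of these 2 segments are shown because they carry the clearest difference between old animals. They are the germline sequences of GENCODE M21 (GRCm38), not reads of the animals, at chr12:113661769-113662068 and chr6:69900424-69900721, both on the minus strand, with the last in-frame TGT, the conserved cysteine codon ahead of the third complementarity-determining region, in capitals.
Ighv5-9: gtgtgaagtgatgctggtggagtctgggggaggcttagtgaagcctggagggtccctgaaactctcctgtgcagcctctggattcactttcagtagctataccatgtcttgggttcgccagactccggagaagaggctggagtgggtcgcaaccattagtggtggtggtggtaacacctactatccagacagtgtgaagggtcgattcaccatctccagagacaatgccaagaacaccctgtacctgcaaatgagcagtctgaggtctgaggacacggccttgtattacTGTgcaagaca
Igkv5-39: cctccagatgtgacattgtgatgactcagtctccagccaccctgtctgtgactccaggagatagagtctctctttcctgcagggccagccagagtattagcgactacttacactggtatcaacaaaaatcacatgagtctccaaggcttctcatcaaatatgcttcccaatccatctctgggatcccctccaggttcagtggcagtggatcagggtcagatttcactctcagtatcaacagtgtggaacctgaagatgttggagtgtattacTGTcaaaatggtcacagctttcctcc

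The same animal carried both segments in its other fractions. Ighv5-9 held 69.6% of Ighv FPKM in its T cell library and in its non-BT library, and Igkv5-39 held 37.6% and 38.0% of Igkv FPKM. Its heavy chain constant region RNA was mostly Ighg1, the IgG1 constant region: Ighg1 was 52.2, 19109 and 25.6 FPKM in the old libraries against 11.97, 19.02, 19.1 and 44.2 in the young. That was 51.2% of constant region FPKM in old B library 2, 71.7% in the T cell and 73.8% in the non-BT library of that animal. The other old animals did not share it. FPKM of near-identical segments is uncertain in how the authors' counting divided reads, and in bulk RNA more cells of a kind and more RNA per cell cannot be told apart.

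Segment use was summarised per library by an effective number, the number of equally used segments that would give the same evenness. For Ighv it was 62.3, 11.5 and 55.5 in old libraries and 62.7, 64.2, 62.4 and 61.9 in young ones. Both old libraries 2 and 3 lay below every young library and old library 1 lay inside the young range. The difference of means was -19.7 (two-sided exact permutation test, p = 0.114, smallest p possible 0.05714), and leaving out old library 2 reduced it to -3.90. For Igkv it was 56.0, 33.98 and 52.1 in old libraries against 55.9, 55.4, 56.5 and 54.6 in young ones, a difference of -8.21 (exact permutation p = 0.229) that was -1.52 without old library 2. Immunoglobulin genes together took 12.9%, 29.5% and 19.2% of summed FPKM in old libraries and 14.5%, 12.7%, 16.7% and 14.8% in young ones. That difference of 5.83 percentage points did not pass the exact permutation test (p = 0.229) and was 1.37 points without old library 2 and 1.74 points when each FPKM was weighted by transcript length. In wild-type B cells the effective number for Ighv was 40.15 to 49.5 in old and 43.3 to 56.4 in young libraries, and that for Igkv was 39.1 to 47.8 in old and 47.9 to 55.5 in young ones, without overlap. The wild-type share was 20.4 to 25.8% in old and 16.1 to 21.9% in young libraries.

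Isotypes differed in kind between the 3 old animals. Ighm, the IgM constant region, held 64.1%, 33.3% and 73.6% of constant region FPKM in old libraries 1 to 3, against 70.2 to 76.8% in young ones. Ighd, the IgD constant region of naive B cells, held 14.02%, 3.1% and 9.9% against 14.9 to 17.8%, so all 3 old libraries lay below all 4 young libraries. In old library 1 the next isotypes were Ighg2c at 11.8% and Ighg2b at 8.1%, against at most 5.3% and 3.8% in young libraries. In old library 3 it was Igha, the IgA constant region, at 13.9% against 3.6 to 10.4% in young libraries. Its leading heavy chain segment was Ighv5-17 at 9.2% of Ighv FPKM. The leading segments of old library 1 (Ighv1-64, 3.8%) and of the young homozygous libraries (4.2 to 4.7%) held less. In wild-type B cells the leading segment held 4.7 to 16.45% in young and 10.1 to 17.0% in old libraries. Young wild-type libraries reached 8.5% for Ighg2c, 7.0% for Ighg2b and 13.5% for Igha. The other most used segments of the homozygous libraries were Ighv9-3, Ighv6-3 and Ighv1-64 of the heavy chain and Igkv6-15, Igkv6-23, Igkv19-93 and Igkv8-30 of the light chain. Igkv6-15 held 6.7 to 10.2% of Igkv FPKM.

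**Figure D1:**
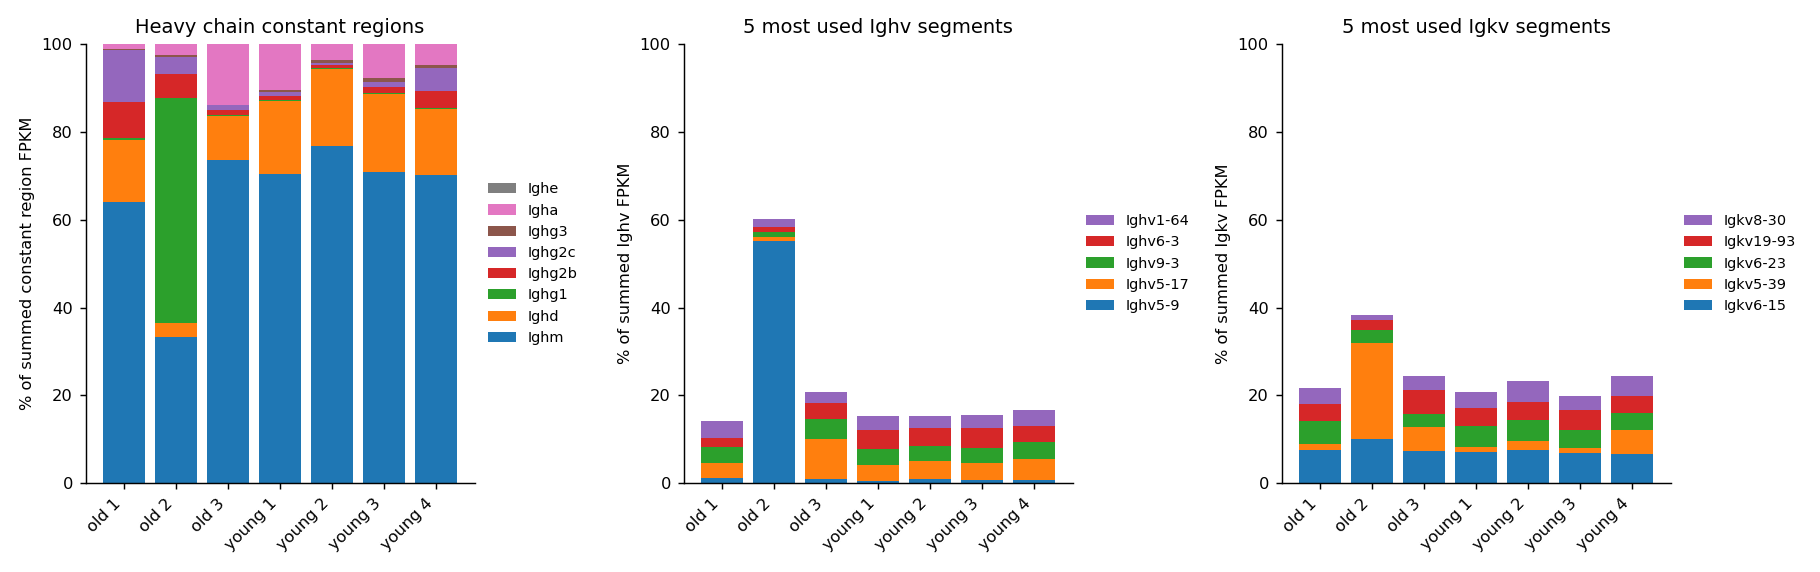
Share in percent of summed FPKM by library for the 8 heavy chain constant regions (left), the 5 most used Ighv segments (middle) and the 5 most used Igkv segments (right), in 3 old and 4 young homozygous B cell libraries. Old library 2 holds 51.2% Ighg1 and 55.1% Ighv5-9, values that the other 6 libraries do not approach.

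Gene by gene, few differences by age passed the test. Of 12269 genes tested with limma on log2(FPKM + 1) with Benjamini-Hochberg adjustment over all of them, 2 passed an adjusted p of 0.05 (0.0163%), both lower in old animals. Of these 2, Gm44389 met the expression filter only through the young homozygous libraries, so its call and direction are no support for a fall with age. At an unadjusted p under 0.05, 723 genes (5.89%) were higher and 1028 (8.38%) lower. Old and young libraries did not overlap for 683 genes higher (5.57%) and 970 genes lower (7.91%) in old animals. The median difference over all genes was -0.03 on the log2 scale. In simulated data on the same 12269 genes, 8% of changes of 0.5 on the log2 scale and 60% of changes of 1.0 were recovered, with 4 false calls in all. There, 50 genes were changed at each size, up to 3, and noise was independent with the same spread in each group. The real median spread was 0.256 in old and 0.19 in young homozygous libraries, so these rates were not shown to hold for them.

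Wdr90, which encodes a WD-repeat protein of centrioles in human cells, fell in old homozygous B cells. It lies at chr17:25844771-25861501 on the minus strand of GRCm38. Its FPKM was 1.90, 3.32 and 2.62 in old and 6.27, 7.32, 6.48 and 6.86 in young libraries, with no overlap, a log2 difference of -1.11 ± 0.16 (SE) and a limma adjusted p of 0.0497. In wild-type B cells it was 6.91, 6.19 and 7.56 in old and 8.71, 7.62, 7.39 and 8.94 in young libraries. The test of the difference between genotypes gave an unadjusted p of 0.0017 and an adjusted p of 0.67. Wdr90 passed in 7 of 21 settings tried, with log2 differences from -1.36 to -0.97. It overlaps Rhot2 on the same strand (mean 13.2 FPKM in old, 16.0 in young), so the division of reads between them is uncertain.

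The other gene past the test was Gm44389, a processed pseudogene of 182 bases at chr6:60461933-60462114. It was listed at 0 in all 3 old libraries and in all 7 wild-type B cell libraries, and at 2.49, 2.83, 1.69 and 1.91 FPKM in the young ones (adjusted p = 0.009, limma). Multiplied by the estimated depth of each library, these 4 values agreed to within a ratio of 1.01, and 11 of the 12 libraries of the series with a value above 0 held this same smallest step. It met the filter of 1 FPKM in 3 libraries only through the 4 young homozygous libraries in which it was above 0. The call thus rests on the lowest nonzero value in 4 libraries, and no fold is given.

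The count of calls depended on single libraries. Without old library 3 it was 86 (33 higher), without old library 1 it was 6, without young library 1 it was 0 and without young library 3 it was 1. The library numbers of the B cells fall in 3 runs, alike in both genotypes. Old library 3 shares a run with the young libraries other than 3 and 4, and the other old libraries have an earlier run to themselves. Outside the shared run, age and run cannot be told apart. The part of the run in the medians of the gene lists below was not tested. Young libraries 3 and 4 of both genotypes carry library numbers of another series. Without them 0 genes passed in limma and 968 were at an unadjusted p under 0.05, and 51 of all 59 list medians, among them the 22 plotted below, kept their sign. The 8 that turned included survival and cytokine receptors (0.01), B cell cytokines (0.10) and histones (0.13), and the others were 5 lists of other cell types.

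Psmb8 itself, at chr17:34197721-34201454, was 756, 968 and 697 FPKM in old and 568, 613, 636 and 649 in young libraries. All 3 old values lay above all 4 young ones, but the difference of 0.38 ± 0.11 on the log2 scale did not pass (limma adjusted p = 0.169). Wild-type B cells had 731, 853 and 788 FPKM in old and 648, 717, 648 and 675 in young libraries, also without overlap. The wild-type difference was 0.23, and the limma test between genotypes gave an unadjusted p of 0.37.

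**Figure D2:**
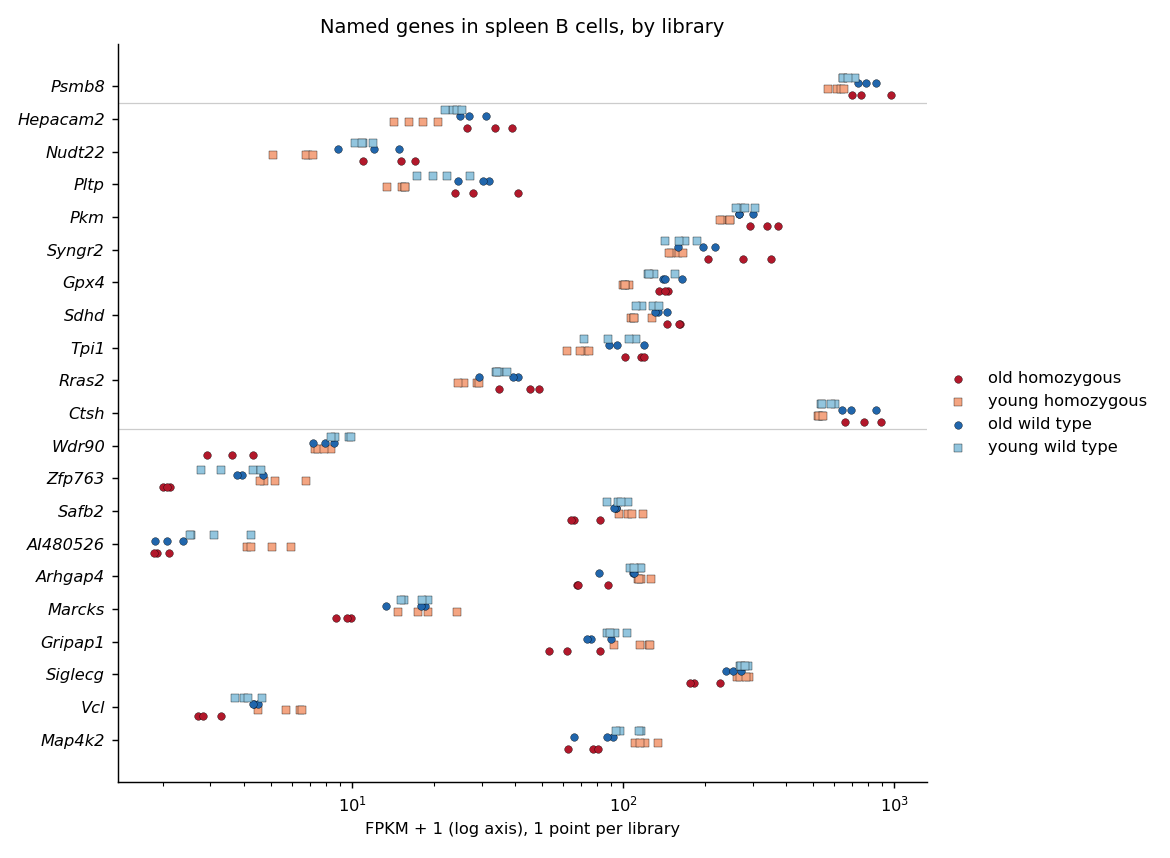
FPKM + 1 on a log axis for Psmb8, the 10 genes higher and the 10 genes lower in old homozygous B cells, 1 point per library, with homozygous and wild-type libraries by age. Old homozygous values lie clear of young homozygous values in every row, while wild-type values by age overlap in most. Rows other than Psmb8 were chosen by the homozygous difference, so the clearer separation there follows in part from the choice. Wdr90 is the plotted gene that passed the adjusted test.

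Below the threshold, the 10 genes with the smallest p on the higher side had adjusted p from 0.074 to 0.094 (limma), and their old and young libraries did not overlap. Several act in energy and redox metabolism. Pkm, the pyruvate kinase of glycolysis, was 338, 370.2 and 293 FPKM in old and 229.7, 246, 227 and 246 in young libraries (0.49 ± 0.09 on the log2 scale). Tpi1, the triosephosphate isomerase of the same pathway, was 115, 118 and 101 against 71.2, 60.9, 68.4 and 73.5 (0.70 ± 0.15). Sdhd, a membrane anchor of succinate dehydrogenase, was 145, 161 and 160.2 against 106, 108, 108 and 127 (0.47 ± 0.10). Gpx4, which reduces lipid hydroperoxides, was 146, 135 and 141 against 104, 99.0, 101 and 100.4 (0.47 ± 0.09).

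Others act in lipid transfer, vesicles and proteolysis. Pltp, phospholipid transfer protein, was 26.8, 39.7 and 22.9 FPKM in old and 14.2, 12.4, 14.7 and 14.7 in young libraries (1.01 ± 0.19), and overlaps Ctsa on the opposite strand. Syngr2, a vesicle membrane protein, was 275, 349 and 204 against 159, 166, 149 and 146 (0.80 ± 0.16). Old library 2 was the highest for both. Ctsh, the lysosomal protease cathepsin H, was 770.2, 891 and 658 against 539.7, 520.4, 527 and 544 (0.53 ± 0.11). Hepacam2, of an immunoglobulin-like adhesion family, was 38.0, 32.8 and 25.4 against 19.7, 13.2, 15.2 and 17.2 (0.93 ± 0.15). Nudt22, a Nudix hydrolase, had 14.1, 16.0 and 10.01 against 5.90, 5.74, 6.14 and 4.09 (1.14 ± 0.20), and Rras2, a Ras-related GTPase, had 47.8, 33.8 and 44.4 against 24.9, 23.5, 27.8 and 28.4 (0.65 ± 0.14).

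The 9 genes that filled the lower side after Wdr90 had an adjusted p of 0.074 (limma). Siglecg, an inhibitory lectin of B cells that dampens receptor signalling, was 182, 176 and 227 FPKM in old and 263, 268, 289 and 282 in young libraries (-0.50 ± 0.09). Marcks, a protein kinase C substrate, was 8.90, 7.70 and 8.56 against 13.7, 18.1, 23.3 and 16.5 (-0.99 ± 0.18), and Vcl, the adhesion protein vinculin, was 1.69, 2.27 and 1.82 against 3.49, 5.43, 4.70 and 5.52 (-0.97 ± 0.18). Map4k2, the germinal centre kinase, was 76.1, 61.6 and 79.95 against 119, 109.8, 114 and 133 (-0.71 ± 0.13). In each of these 4 genes old library values stayed below the lowest young library. Zfp763, a zinc finger gene with close relatives, was 1.01, 1.13 and 1.07 against 5.78, 3.74, 4.20 and 3.58 (-1.35 ± 0.22), Safb2, a scaffold attachment factor, was 81.4, 64.8 and 63.2 against 95.6, 103, 117 and 106 (-0.60 ± 0.10), and AI480526, a gene model with no known role, was 0.903, 0.864 and 1.11 against 4.04, 3.09, 4.96 and 3.25 (-1.29 ± 0.23). Arhgap4, a GTPase-activating protein, was 66.7, 66.9 and 86.9 against 115, 113, 126 and 114 (-0.67 ± 0.12), and Gripap1, an endosomal protein, was 52.4, 61.0 and 81.1 against 91.4, 123.1, 114 and 125 (-0.81 ± 0.15). Both of these lie on the X chromosome, and the part of the missing Y-linked transcripts of old library 2 in their values was not tested.

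A further pair was picked after the values were seen. Mir142hg, the host of the blood cell microRNA miR-142, was 9.27, 7.89 and 26.1 FPKM in old and 43.5, 44.7, 65.5 and 43.7 in young libraries, with an adjusted p of 0.0816 (limma). It passed in 3 of 21 settings, with the replicate number as a block (limma adjusted p = 0.0464), after rescaling without immunoglobulin genes (0.0462) and without old library 3 (0.00922). Old libraries 1 and 2 were lowest and all 3 lay below the young ones. With the run of library numbers as covariate the log2 difference was -0.86 (limma adjusted p = 0.42), against -1.87 in the main fit. In wild-type B cells Mir142hg was 19.8, 12.3 and 37.5 FPKM in old and 33.5, 45.5, 49.4 and 38.2 in young libraries, so old libraries 1 and 2 were lowest there too. The mature arms, shown because FPKM measured the host transcript and neither arm itself, lie on the plus strand at chr11:87756867-87756887 and chr11:87756903-87756925 (RefSeq, GRCm38.p6), with the seed, bases 2 to 8, in capitals.
mmu-miR-142a-5p: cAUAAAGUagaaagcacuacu
mmu-miR-142a-3p: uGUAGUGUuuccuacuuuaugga
Prkcb, a protein kinase C isoform of B cell receptor signalling, was 208, 159 and 173 FPKM in old and 253, 256, 281 and 253 in young libraries (adjusted p = 0.088, limma), and passed in 2 of 21 settings, under quantile normalization (0.0352) and after rescaling without immunoglobulin genes (0.0394).

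The gene groups below are described by counts and medians. No member passed the adjusted test in any list apart from those named above, so each count is of members whose old libraries all lay above or below all young libraries, to be read against 5.57% of all genes higher and 7.91% lower.

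Genes of glycolysis stood higher in old homozygous B cells. Of 15 members, 9 were higher in all 3 old libraries than in all 4 young libraries and 0 lower, with a median of 0.35 on the log2 scale against -0.03 over all genes. Each old library had a positive median, 0.45, 0.37 and 0.23. Without old library 2, 11 of the 15 were clear of the young libraries, against 1263 of all genes higher (10.3%) and 1491 lower (12.2%), and without old library 1 it was 9, against 1242 (10.1%) and 1782 (14.5%). The wild-type median was -0.04 with 0 members higher and 0 lower. Aldoa, fructose-bisphosphate aldolase, was 813, 531 and 678 FPKM in old and 550.5, 500.3, 486 and 497 in young libraries. Ldha, lactate dehydrogenase, was 572, 696 and 481 against 375, 387, 394 and 430.4. The median was 0.29 under quantile normalization and 0.28 after rescaling without immunoglobulin genes.

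The promoters of Pkm, Tpi1 and Ldha are shown because they belong to the glycolysis list just described, with ACGTG on either strand in capitals. This is the core that hypoxia-inducible factor and Myc-type E-boxes share. The windows run from 250 bases before to 50 after the start, from RefSeq (GRCm38.p6), at chr9:59656326-59656625 on the plus strand, chr6:124814109-124814408 on the minus strand and chr7:46845554-46845853 on the plus strand.
Pkm: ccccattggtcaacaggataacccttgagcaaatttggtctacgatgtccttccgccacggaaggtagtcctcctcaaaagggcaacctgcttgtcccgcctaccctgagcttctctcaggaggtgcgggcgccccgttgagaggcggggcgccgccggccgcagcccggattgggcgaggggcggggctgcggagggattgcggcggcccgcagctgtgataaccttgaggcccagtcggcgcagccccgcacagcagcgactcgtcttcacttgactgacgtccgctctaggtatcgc
Tpi1: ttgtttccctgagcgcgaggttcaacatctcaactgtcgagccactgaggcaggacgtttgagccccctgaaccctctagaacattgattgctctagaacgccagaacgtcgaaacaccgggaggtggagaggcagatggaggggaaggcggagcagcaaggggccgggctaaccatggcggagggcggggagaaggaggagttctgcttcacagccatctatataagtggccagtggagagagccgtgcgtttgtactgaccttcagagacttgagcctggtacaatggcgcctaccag
Ldha: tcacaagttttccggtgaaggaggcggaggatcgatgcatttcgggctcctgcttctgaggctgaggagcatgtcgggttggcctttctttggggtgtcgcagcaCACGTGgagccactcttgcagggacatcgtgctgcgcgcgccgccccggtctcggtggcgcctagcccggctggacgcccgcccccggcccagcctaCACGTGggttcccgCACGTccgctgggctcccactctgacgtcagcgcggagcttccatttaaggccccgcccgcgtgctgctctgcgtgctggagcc
Of 14 glycolysis promoters in the table, 6 held ACGTG (42.9%), against 2353 of 8846 promoters of tested genes (26.6%) and 5315 of 27025 of all genes (19.7%). The Pkm and Tpi1 windows hold none and the Ldha window holds several. A match describes letters and shows no binding.

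Ribosomal protein genes, which build the ribosome, had 38 of 83 tested members higher and 0 lower in old animals, with a median of 0.19. Nuclear genes of the respiratory chain had 26 of 75 higher and 0 lower, with a median of 0.15. Wild-type medians were 0.01 and -0.02. Rps19 was 6869, 5100.3 and 6609 FPKM against 4898 to 5581 in young libraries, and Atp5b, the catalytic subunit of ATP synthase, was 927, 913 and 917 against 843 to 919.6. Under quantile normalization the ribosomal median was -0.007 and the respiratory median 0.03, so the direction of the former rests on the scaling. Differences also varied with exon length: in 5 equal classes of protein-coding genes from shortest to longest the median was 0.09, 0.03, -0.04, -0.07 and -0.12, against 0.01, -0.01, -0.04, -0.04 and -0.05 in wild-type B cells. The median exon length was 1770.0 bases for the tested ribosomal and 1718 for the respiratory genes, against 4396.5 for all protein-coding genes tested and 5001 for glycolysis. The part of length in these medians was not tested. The 13 mitochondrially encoded genes had a median of -0.19, with 1 lower and 0 higher. Among them mt-Cytb, which encodes cytochrome b, was 2397, 2802 and 2601 against 2582 to 3707.

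Proteasome lists had small positive medians that depended in size on the scaling. All 11 genes of the 20S core had positive differences, 4 without overlap, with a median of 0.21. Psma7, an alpha-ring subunit, was 491, 403 and 444 FPKM in old and 322, 336, 331 and 364 in young libraries. Of 6 genes of the immunoproteasome, the PA28 activator and assembly, 3 did not overlap, with a median of 0.25. The 3 constitutive catalytic subunits had a median of 0.22 with 0 clear of the young libraries. Psme2, a PA28 activator subunit, was 419.8, 569 and 416 against 378 to 409. The regulatory 19S particle had a median of 0.10 over 21 genes, with 2 clear. Under quantile normalization the medians were 0.06 for the 20S core (9 of 11 genes positive), 0.08 for the immunoproteasome, 0.06 for the constitutive subunits and 0.03 for the 19S particle. Without old library 1 they were 0.13 for the 20S core and 0.01 for the 19S particle. The wild-type medians of these lists lay between -0.06 and 0.02.

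MHC class II genes had 7 of 11 members higher and 1 lower, with a median of 0.20, and the wild-type median was similar at 0.23 (3 higher). H2-Ab1, a class II beta chain, was 12152, 11901 and 11349 FPKM in old and 9024 to 9965 in young libraries. Under quantile normalization this median was -0.006, so its direction rests on the scaling. MHC class I had a median of 0.26 with 2 of 12 higher, and 0.12 without old library 2 and 0.09 under quantile normalization. H2-D1, a classical class I heavy chain, was 3622, 3403 and 2914 against 2352 to 2828. Cd74, the class II invariant chain, was 30520.0, 27232 and 29981 against 26440.0 to 28647, and these ranges overlapped. How reads were divided among near-identical H2 genes is not stated.

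B cell identity genes were slightly lower. Of 16, 4 were below every young library and 0 above, with a median of -0.13. By old library the median was -0.20, -0.20 and -0.006, so library 3 lay near the young level. Ralgps2, a guanine nucleotide exchange factor and 1 of these 4, was 170.5, 172 and 199.5 FPKM in old and 222, 242, 233 and 264 in young libraries. Cd79a, the receptor's signalling chain, was 1807, 1589.6 and 1928 against 1779 to 2002, and the groups overlapped. Receptor signalling genes had 7 of 26 lower and 1 higher, with a median of -0.13 against -0.10 in wild type. By old library it was -0.16, -0.20 and -0.03.

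Subset markers differed in direction. Of 6 tested genes of immature B cells all had negative differences, 2 below every young library (Sox4 and Cd93), with a median of -0.40. Vpreb3, a pre-B receptor chaperone, was 187, 144 and 248 FPKM in old and 242 to 314 in young libraries. Follicular markers had a median of -0.15 (1 higher, 3 lower of 13), which was 0.02 without old library 2. Marginal zone markers had -0.33, with 0 of 12 clear in either direction, by old library -0.72, -0.32 and -0.05, and -0.13 without old library 1. Cr2, the complement receptor CD21, was 258, 247 and 452 against 387 to 443, low in old libraries 1 and 2 alone. The B1 list had a median of 0.39 and, without old library 2, -0.11. Memory markers had 0.13.

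Markers of age-associated B cells had a median of 0.75, with 13 of 13 positive, but 1 clear of the young libraries. That was Apoe, apolipoprotein E, at 474, 818 and 316 FPKM in old and 251, 301, 264 and 300.2 in young libraries. By old library the median was 0.51, 1.88 and -0.01, so library 3 lay at the young level, and without old library 2 the median was 0.30. The wild-type median was 0.44. Tbx21, the T-bet factor of these cells, was 12.5, 34.7 and 2.52 FPKM in old and 2.27 to 5.32 in young libraries. Germinal centre markers had a median of 0.99, by library 1.003, 1.77 and 0.04, with 0 clear of the young libraries and 0.30 without old library 2. Mef2b, a germinal centre transcription factor, was 19.98, 106 and 7.32 against 4.83 to 22.2. The wild-type median was -0.57.

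Genes of antibody-secreting cells had 3 of 15 members higher, Mzb1, Creld2 and Sec11c, with a median of 0.49 that was 0.19 without old library 2. Mzb1, an endoplasmic reticulum chaperone partner, was 395, 699.8 and 379.6 FPKM in old and 281, 272, 311 and 352 in young libraries, and Jchain, the joining chain of IgM and IgA, was 490.0, 2025 and 1874 against 547 to 870.3. Chaperones of the unfolded protein response had a median of 0.28 with 1 of 22 higher, 0.12 without old library 2. Cell cycle genes had a median of 0.52 with 0 of 32 clear, by old library 0.36, 1.55 and -0.07, and 0.12 without old library 2. The proliferation gene Pcna, the sliding clamp, was 91.7, 103 and 69.3 against 60.7 to 81.0.

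Heat shock genes stood high in old library 1. Their summed FPKM was 12663, 5064 and 6298 in old libraries and 4656 to 5848 in young ones, and the list median of 0.54 was 0.11 without old library 1. Hspa1a, an inducible Hsp70, was 19.3, 0.886 and 1.43 FPKM against 0.106 to 0.747, and Hspa8, the constitutive one, was 4932, 2279 and 2734 against 1887 to 2385. Hspa1a and Hspa1b are near-identical and divide reads uncertainly. Interferon-gamma-induced genes had a median of 0.44 with 1 higher and 1 lower of 20, by old library 0.46, 0.95 and -0.11. Type I interferon genes had a median of 0.13 with 3 of 48 higher, by old library 0.25, 0.19 and -0.11, and 0.03 without old library 1 or 0.06 without old library 2.

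**Figure D3:**
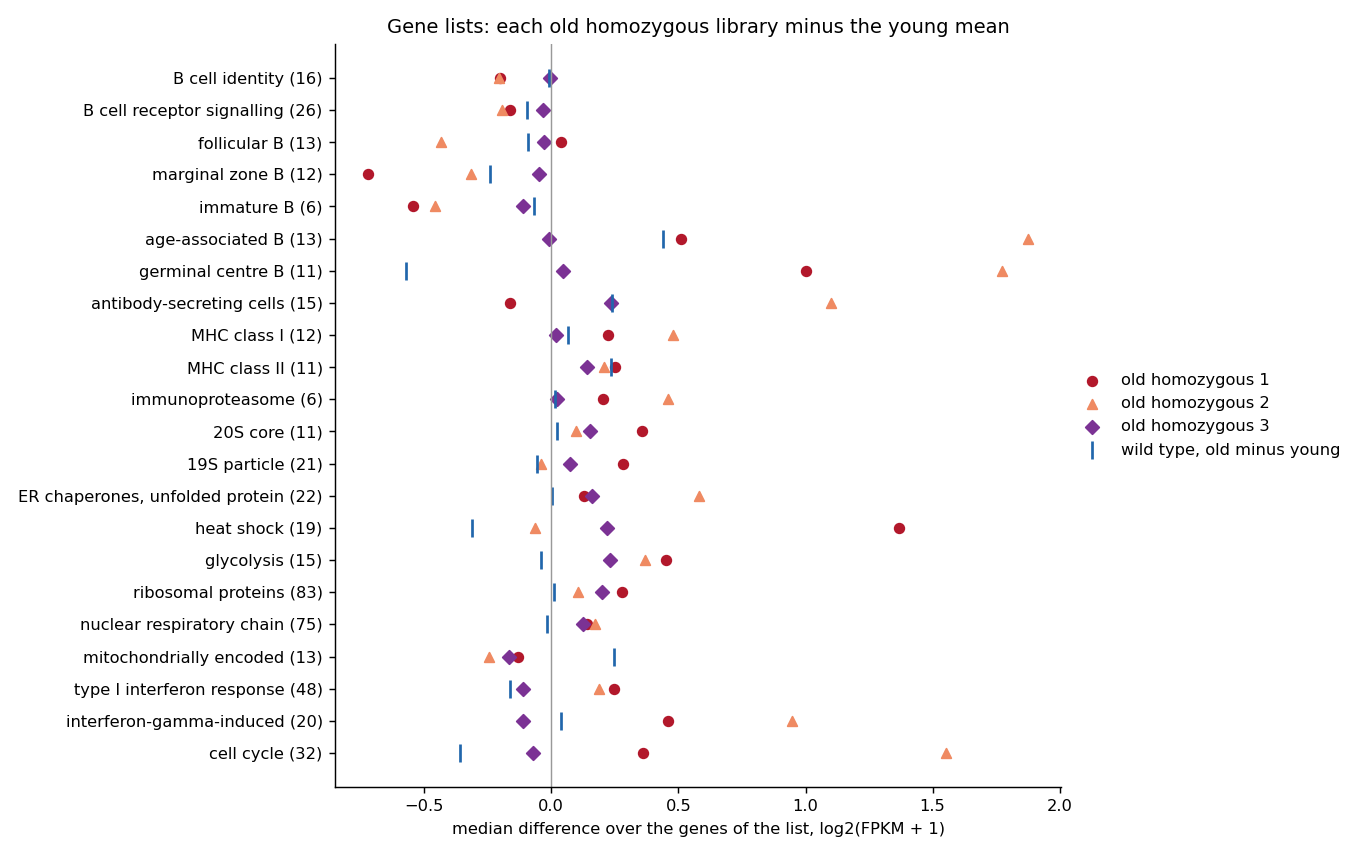
Median log2(FPKM + 1) difference over the tested genes of each list, for each old homozygous library against the young homozygous mean, with wild-type old minus young as a bar and the number of genes in brackets. Glycolysis, ribosomal, respiratory, 20S core, immunoproteasome, MHC class I, MHC class II and unfolded protein medians are positive in all 3 old libraries. Age-associated, germinal centre, cell cycle and heat shock medians are spread among the old libraries. Of these, only the germinal centre median is positive in all 3.

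Lists of signals and cell maintenance held few members clear of the young libraries. Survival and cytokine receptors had a median of -0.01 over 17 genes (0 higher, 2 lower), Toll-like receptors and their adaptors 0.03 over 17 genes (0 higher, 0 lower), and co-stimulatory molecules 0.16 over 10 genes (1 higher, 0 lower). Cytokines made by B cells had -0.06 over 13 genes (0 higher, 1 lower), homing receptors 0.05 over 18 genes (1 higher, 1 lower), and the NF-kB list 0.03 over 16 genes (0 higher, 2 lower). Immediate early genes, which respond within minutes to stimulation or handling, had 0.29 over 19 genes (0 higher, 0 lower), with -0.09 without old library 1 and -0.06 without old library 2. Integrated stress response genes had 0.24 over 21 genes (1 higher, 0 lower), with 0.12 without old library 2. The Nrf1 and Nrf2 targets that refill proteasome and redox capacity had -0.01 over 11 genes (0 higher, 1 lower) and ubiquitin system genes 0.16 over 11 genes (2 higher, 1 lower).

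The median was, for the p53 and senescence list, 0.05 over 16 genes (2 higher, 1 lower), for the Bcl2 family 0.09 over 14 genes (1 higher, 1 lower), for cholesterol synthesis 0.05 over 17 genes (0 higher, 0 lower), for class switch and repair 0.11 over 13 genes (1 higher, 0 lower), and for histones -0.06 over 37 genes (1 higher, 2 lower). S100, annexin and galectin genes had 0.09 over 13 genes (2 higher, 0 lower), clock genes -0.05 over 12 genes (0 higher, 0 lower) and glucocorticoid targets -0.09 over 9 genes (0 higher, 0 lower). Immunoglobulin constant genes had 0.23 over 12 genes (1 higher, 2 lower), a median that was -0.22 under quantile normalization and 0.82 without old library 1. Heavy chain V segments had 0.22 over 105 genes (9 higher, 2 lower), kappa V segments 0.34 over 99 genes (23 higher, 2 lower) and lambda V segments 0.19 over 3 genes (0 higher, 0 lower). Igkc was 29503, 57969 and 42598 FPKM in old and 26562, 25113, 25893 and 28862 in young libraries, highest in old library 2.

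Markers of other cells were present at low levels. The T cell list of 18 tested genes summed to 409, 437 and 387 FPKM in old and 369 to 419 in young libraries. Macrophage genes summed to 206, 814 and 403 against 275 to 486, monocyte genes to 118, 519.8 and 209 against 157 to 220.1 and NK cell genes to 22.4, 55.4 and 19.2 against 16.0 to 38.6. Old library 2 was the highest in all 3 of these. Erythroid genes summed to 89.7, 102 and 157 against 97.3 to 263. The part of these cells in the gene groups above was not tested.

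Wild-type animals gave the same comparison without the variant. In wild-type B cells 0 of 12269 genes passed (limma, smallest adjusted p 0.526) and 768 had an unadjusted p under 0.05 (6.26%). Old and young wild-type libraries did not overlap for 272 genes higher (2.22%) and 524 lower (4.27%). Of the 683 genes higher in old homozygous animals, 431 had the same sign in wild type with a median there of 0.05 against 0.34, and 47 were clear in both. Of the 970 lower genes, 660 had the same sign, with medians of -0.09 and -0.47, and 73 were clear in both. Both gene sets were chosen in the homozygous libraries, so the larger medians there follow in part from the choice. Across 12269 genes, which are not independent, the differences of the 2 genotypes correlated at 0.167, a description with no p. No library is shared between them. The test of the difference by genotype called 0 genes (limma, smallest adjusted p 0.417), and 868 genes were below 0.05 before adjustment (7.07%). No gene was thus shown to differ by age in homozygous animals alone. Wild-type differences differed in size among the genes named above. They were -0.01 for Pkm, 0.11 for Tpi1, -0.12 for Siglecg and 0.16 for Zfp763. Larger ones in the homozygous direction were 0.35 for Ctsh, 0.43 for Pltp, -0.38 for Map4k2 and -0.53 for AI480526. Old and young wild-type libraries did not overlap for Ctsh, Map4k2 and AI480526.

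**Figure D4:**
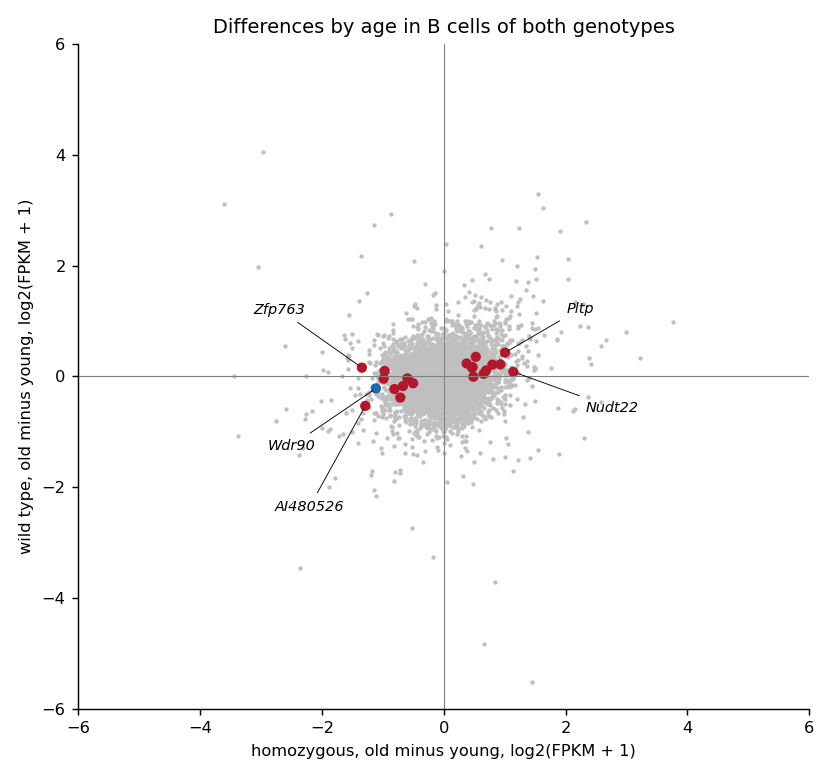
Difference old minus young in log2(FPKM + 1) for 12269 genes in homozygous (horizontal axis) and wild-type B cells (vertical axis). Red points are Psmb8 and the named genes and the blue point is Wdr90; the wild-type differences of these genes run from -0.53 to 0.43.

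The B cell differences by age were tested against those of T cells and non-BT cells of the same homozygous animals, over all 42 libraries with the animal as a block. Old T cells had 472 of 14719 genes past the threshold (3.21%) and non-BT cells 581 (3.95%). The B cell difference alone was not tested in this fit. These counts are thus not comparable with the calls of the B cell fit, which used fewer libraries and another set of genes. The difference by age itself differed between B and T cells for 50 genes (0.34%), 6 with a higher (0.0408%) and 44 with a lower (0.299%) value in B cells, 21 of the latter immunoglobulin genes. Between B and non-BT cells it differed for 275 genes (1.87%), 104 higher (0.707%) and 171 lower (1.16%), 97 of the latter immunoglobulin genes. The B against T count was 3, 4 and 260 without old animal 1, 2 or 3, and 24, 0 and 30 without young animals 2, 3 and 4. Without young animal 3, limma gave 1847 genes at an unadjusted p under 0.05. The B against non-BT count was 67, 105 and 575 without old animal 1, 2 or 3, and 180, 116, 112 and 183 without young animals 1 to 4.

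Wdr90 differed from both. Its FPKM was 12.4, 9.85 and 8.44 in old and 6.404, 8.91, 6.22 and 2.76 in young T cells, and 11.97, 13.1 and 11.9 in old and 5.74, 4.84, 4.97 and 6.44 in young non-BT cells. Old values lay above all young ones in non-BT cells, reached into the young range in 1 T cell library, and lay below all young ones in B cells, with differences of -1.85 ± 0.33 against T cells (limma adjusted p = 0.0076) and -2.15 ± 0.33 against non-BT cells (adjusted p = 0.00022).

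Several B cell transcripts were higher in old than in young T cells, non-BT cells or both. Cd79a was 59.1, 60.2 and 20.3 FPKM in old T cells against 3.82 to 8.06 in young ones, a difference by age of -2.89 ± 0.53 between B and T cells. Igkc, the kappa constant region, was 55781, 102770.0 and 21674 in old non-BT cells against 1476 to 2933 in young ones (-3.99 ± 0.64). Iglc3, a lambda constant region, differed between B and T cells by -2.82 ± 0.52, and Bank1, a B cell scaffold protein, by -1.49 ± 0.28 (adjusted p = 0.0091, limma). Against non-BT cells Ighm differed by -2.83 ± 0.48, Pou2af1, a B cell co-activator, by -2.74 ± 0.47 and Ralgps2 by -1.84 ± 0.28. In each of these 7 genes the difference by age was smaller in B cells than in the other fraction, and the part of B cells remaining in the T and non-BT fractions was not tested.

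Tpst2, a tyrosylprotein sulfotransferase, was 219.6, 148 and 137 FPKM in old and 107 to 118 in young B cells, and 103 to 115 against 147 to 183 in non-BT cells, a difference of 1.15 ± 0.18. Atp6v0a1, a proton pump subunit, was 19.4, 21.9 and 20.02 in old and 21.6 to 24.4 in young B cells, and 6.44 to 10.1 against 2.45 to 3.13 in T cells, a difference of -1.51 ± 0.28. Both genes were well above 1 FPKM in every B library. The other 5 named genes were at or near 0 in B cells and reached the test through the other fractions, so their values restate the difference by age in T or non-BT cells. Ampd1, a muscle AMP deaminase, was listed at 0 in all 7 B libraries and was 2.83, 2.87 and 7.91 in old and 10.4 to 14.03 in young T cells (adjusted p = 0.0108). The highest B cell values were 1.22 FPKM for Gp2, 1.01 for Ctsw, 0.877 for Lgalsl and 1.13 for Penk. Gp2, a membrane glycoprotein, differed by -3.09 ± 0.41 against non-BT cells and Ctsw, a cytotoxic cell protease, by 1.88 ± 0.33. Lgalsl and Penk differed by -1.63 ± 0.31 and -2.18 ± 0.43 against T cells. The non-BT genes passed in 13 of 13 settings and the T cell genes in 7 to 11.

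**Figure D5:**
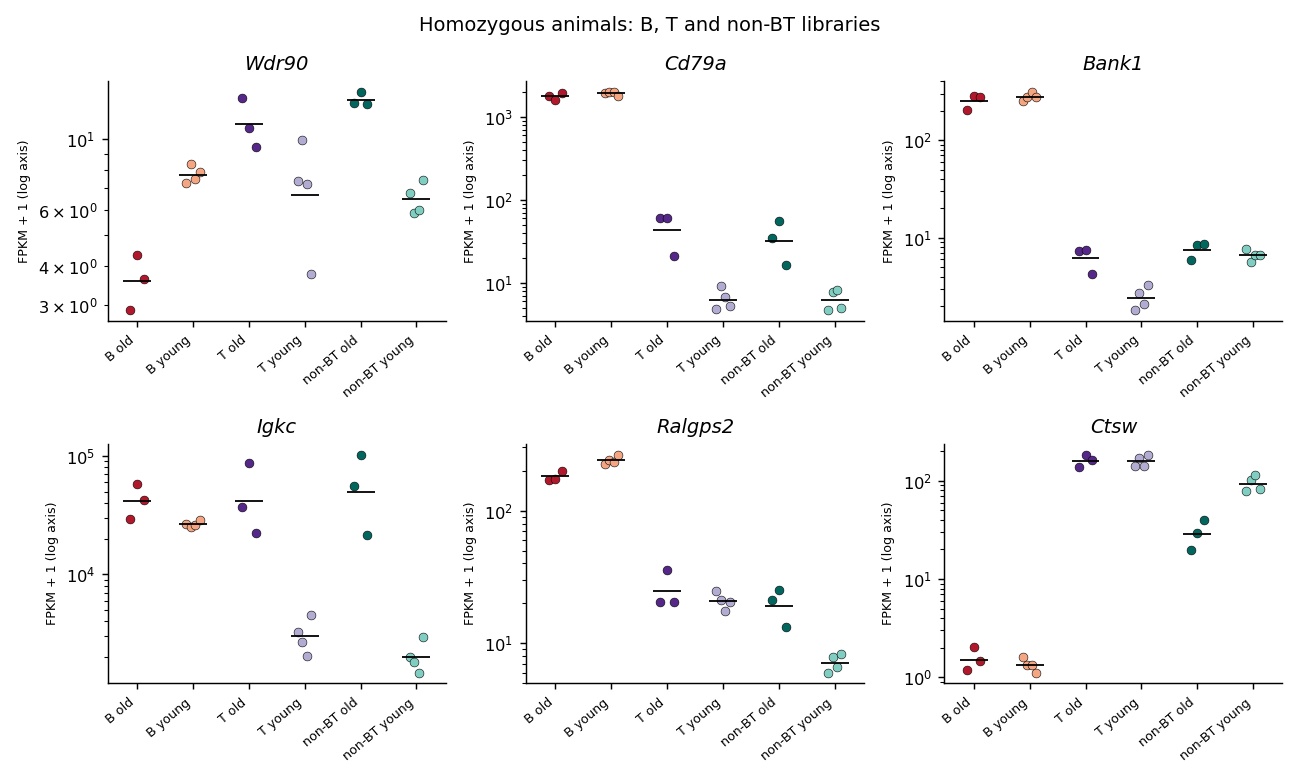
FPKM + 1 on a log axis for 6 genes in B, T and non-BT libraries of old and young homozygous animals, 1 point per library with the mean of log values as a line. Wdr90 is lowest in old B cells and highest in old non-BT cells, and Cd79a and Igkc are higher in old than in young T and non-BT libraries.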

How the data were processed

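Poly(A) RNA of spleen fractions was amplified by PCR (RNeasy micro, SMART-Seq HT, Nextera XT, per the labels' protocols). No strand marking or molecular tag is named, so opposite-strand genes and PCR copies are not separated. The authors deposited FPKM for 47719 Ensembl genes per library. Cufflinks 2.2.1, Cuffdiff, HISAT2 2.1.0 and build GRCm38.p4 are named in the submitters' processing notes. Identifiers were matched to GENCODE M21 (47305), and 21276 genes were at 0 throughout. Depth was estimated from the smallest FPKM steps, so no counting intervals are given.

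A gene was tested if 3 or more of the B libraries reached 1 FPKM, using limma 3.58.1 in R 4.3.3 on log2(FPKM + 1), with a trend, over 4 groups, two-sided, Benjamini-Hochberg adjusted. Cell type differences used 14719 genes and the animal as a block. Single measures used exact permutation tests (scipy 1.17.1). The fit was checked on simulated data. Named genes were Psmb8, up to 15 called genes per direction filled to 10 by smallest p, 2 high members of most lists, and 8 genes per cell type difference. Pseudogenes and models named Gm or Rik were left out of naming, and Gm44389, Mir142hg and Prkcb were named after their values were seen. The members and the 59 lists were chosen with earlier results of these data known. Titles number the animals but do not say that they were housed or prepared separately, so p-values measure the spread between these libraries. A few genes are not reported here. Alternatives are in the closing section.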

Additional observations from a re-analysis of the deposited data

Results flagged for a closer look

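Among the young homozygous B libraries, 5 of 65 values examined in that group of 4 held 1 library far from the other 3 by Dixon's test, where chance gives about 1 in 20. Young library 4 was the highest for Sdhd at 127.2 FPKM (106 to 127 in the group) and for Ighm at 7708 FPKM, and the lowest for Cd79a at 1779 FPKM. Young library 3 was the highest for Ighd at 1743 FPKM and the lowest for H2-D1 at 2352 FPKM. The old values of Sdhd and H2-D1 lay above all 4 young values, with or without these libraries.

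In 16 cases the difference by age in homozygous B cells differed from that in another fraction of the same animals by the limma test of the difference. Against T cells the log2 values were -1.85 for Wdr90, -1.51 for Atp6v0a1, -2.89 for Cd79a, -2.82 for Iglc3, -1.49 for Bank1, -1.63 for Lgalsl, 1.32 for Ampd1 and -2.18 for Penk. Against non-BT cells they were -3.09 for Gp2, -1.84 for Ralgps2, -2.15 for Wdr90, 1.15 for Tpst2, -3.99 for Igkc, -2.83 for Ighm, -2.74 for Pou2af1 and 1.88 for Ctsw. Ampd1, Penk, Lgalsl, Gp2 and Ctsw were at or near 0 in B cells.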

How the results depend on the processing

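The count of 2 calls in homozygous B cells was 0 with a pseudocount of 0.1 FPKM (1788 at an unadjusted p under 0.05 in limma), 0 with the filter in 7 libraries (1668), 0 without young libraries 3 and 4 of both genotypes (968) and 0 with only the homozygous libraries (1703). It was 15 under quantile normalization, 41 after rescaling without immunoglobulin genes (2 higher, 39 lower) and 1 without the Psmb9-labelled library. Leaving out 1 library gave 0 to 86. Replicate numbers did not pair the animals: same-numbered old and young libraries correlated at -0.0246, -0.0444 and 0.014 in their deviations. The replicate block gave 3 calls (Syngr2, Mir142hg and Gm44389), and 1 with only the homozygous libraries; in wild type and for the genotype difference it gave 0 calls. The genotype difference had 1 call with no filter (Gm44389), and leaving out 1 library gave 0 to 1 there and 0 to 1 in wild type (Igkv6-20). Against T cells the count of 50 was 107 under quantile normalization, 24 with no filter and 26 with no animal block, and 0 to 260 without 1 animal. Against non-BT cells the count of 275 was 170 with no filter and 167 without the animals labelled Old-2, and 67 to 575 without 1 animal. Leaving out 1 library gave differences of 1.37 to 9.64 points for the immunoglobulin share, -29.3 to -3.90 for Ighv and -12.6 to -1.52 for Igkv effective numbers. The cause of these shifts was not tested.

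Directions that turned were those of genes that did not pass. Quantile normalization gave -0.57 for Cd74, -0.39 for Ighm, -0.042 for Psma3, -0.058 for B2m, -0.42 for H2-Ab1, -0.063 for Rps27, -0.11 for Atp5b and -0.062 for Cox6b1. Cd74 was -0.000703 after rescaling without immunoglobulin genes and -0.032 with the run of library numbers as covariate. Bcl6 turned to 0.079 and 0.078 without Old-2 animals and with the run. Leaving out 1 library gave -0.033 (old 1) to 0.75 for Hsp90ab1 and -0.27 to 0.079 (old 2) for Bcl6.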

Other observations

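Several annotation classes of noncoding genes had medians below 0 by age in homozygous B cells, with no test run on them. Antisense transcripts (259 tested genes) had a median log2 difference of -0.24, long intergenic RNAs (212) -0.21, small nucleolar RNA genes (55) -0.39 and models of the annotation class TEC (94) -0.47. Medians in wild-type B cells were 0.0023 to 0.048, and each of the 3 old homozygous libraries had a negative median in all 4 classes. No strand was recorded, so antisense values include reads of the partner gene.

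Hspa1a also stood higher with age in homozygous T and non-BT cells and in wild-type T cells, with no test run on it there. It was 12.2, 3.67 and 13.3 FPKM in old and 0.440 to 1.39 in young homozygous T cells, and 8.96, 4.29 and 7.35 against 0.420 to 2.14 in wild-type T cells. In homozygous non-BT cells it was 33.1, 10.2 and 34.9 against 5.39 to 9.53. The ages overlapped in wild-type non-BT cells (33.5, 7.75 and 16.3 against 4.56 to 14.3) and wild-type B cells (3.20, 0.540 and 0.308 against 0.266 to 1.82). The near-identical Hspa1b also overlapped in homozygous non-BT cells, at 60.2, 10.4 and 44.7 against 9.97 to 21.1. Hsph1, a co-chaperone of the same list, was high in old library 1 only: 275, 79.4 and 100.2 against 90.2 to 102 in homozygous T cells and 118, 59.8 and 60.9 against 55.6 to 86.0 in non-BT cells.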
